A study of Mus musculus with 9 samples.

Results

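The 42 genes described here act in the G2 and M phases of the cell cycle, from the kinases that start mitosis to the proteins that split the daughter cells. They were chosen by gene symbol from a list drawn up with general results of these data known, and all 42 were found among the 23282 rows of the deposited count tables. Gene expression was measured by sequencing the 3′ ends of transcripts (Lexogen QuantSeq) in back skin of wild-type C57BL/6 (B6) mice, in 3 groups of 3 libraries. The first group was skin without tape stripping, labelled as given control cream (untaped). The second was skin whose outer layers had been peeled off with tape, given control cream (taped), and the third was tape-stripped skin given a cream with nano-sized graphene oxide, a carbon nanomaterial (NGO-cream). The NGO dose was 50 µg per mouse in a volume of 100 µL, and skin was taken 24 h later. The labels' protocol speaks of cream on stripped areas alone, so it cannot be told from the labels whether the untaped skin was covered. The labels give no age, nor do they say that the replicates came from separate animals, so the p-values measure the spread between these libraries.

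As background, a dividing cell copies its DNA in S phase, prepares in G2 and then separates its chromosomes in mitosis. Genes for mitosis are transcribed mainly in G2 and M, under the B-MYB and FOXM1 transcription factors and the MuvB complex, and many of their protein products are destroyed as the cell leaves mitosis, so their transcripts are widely read as a mark of dividing cells. In resting skin the dividing cells are mainly basal keratinocytes and, in growing hair follicles, the cells of the hair matrix. In whole skin, fewer dividing cells and less of these transcripts per cell cannot be told apart.

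The control region of many mitotic genes holds a cell cycle homology region, the element through which MuvB binds, near the start of transcription, often with CCAAT boxes upstream. Since most called members were lower after stripping and all called members were higher with NGO than in taped skin, these letters were looked for in the RefSeq promoter windows of build GRCm38.p6 (the same assembly as mm10), from 250 bases before to 50 bases after a start. A window was present for 35 of the 42 genes. TTTGAA, read on both strands, occurred for 28 of these 35 genes (80.0%), against 20.2% of the 27025 genes with a window. In the stretch from 50 before to 50 after the start, chosen after its contents were seen, the counts were 25 of 35 (71.4%) and 5.72%. CCAAT, also on both strands, occurred for 27 of 35 genes (77.1%) against 41.1% of all genes, and no match of one motif overlapped a match of the other. Among the 13 genes with a window that were called lower after stripping or higher with NGO in the tests below, 12 held TTTGAA, and among the 22 others 16 did. A match describes letters and is not a binding site.

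Of these sequences, 5 are shown to let the reader see the elements in genes discussed below, 4 that carry TTTGAA upstream of the start and Birc5, which has neither motif in its window. Each runs 5′ to 3′ on the strand of the gene from base -120 towards the start at +1 and stops before the first base of an exon in GENCODE M21. Capitals mark TTTGAA and CCAAT, or their reverse complements TTCAAA and ATTGG. The positions are chr11:99024190-99024309 (minus strand) for Top2a, chr7:135716380-135716499 (minus) for Mki67, chr10:69352939-69353032 (minus) for Cdk1, chr4:118437353-118437463 (minus) for Cdc20 and chr11:117849117-117849236 (plus) for Birc5.
Top2a: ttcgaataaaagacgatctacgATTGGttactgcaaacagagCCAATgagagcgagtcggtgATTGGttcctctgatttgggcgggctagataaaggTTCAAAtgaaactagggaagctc
Mki67: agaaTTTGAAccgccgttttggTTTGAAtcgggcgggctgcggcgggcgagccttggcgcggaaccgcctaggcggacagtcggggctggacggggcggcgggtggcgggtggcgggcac
Cdk1: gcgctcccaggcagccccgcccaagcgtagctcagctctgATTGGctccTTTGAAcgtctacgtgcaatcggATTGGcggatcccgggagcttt
Cdc20: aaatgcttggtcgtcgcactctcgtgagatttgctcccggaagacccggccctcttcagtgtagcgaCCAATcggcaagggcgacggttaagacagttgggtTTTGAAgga
Birc5: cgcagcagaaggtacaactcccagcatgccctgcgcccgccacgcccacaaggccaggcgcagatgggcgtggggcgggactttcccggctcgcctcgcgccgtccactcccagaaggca
The Top2a stretch holds 3 CCAAT boxes and 1 TTTGAA in reverse, close to the start. The Mki67 stretch has 2 copies of TTTGAA and no CCAAT box, the Cdk1 stretch 1 and 2, and the Cdc20 stretch 1 of each.

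Library totals ran from 2019739 to 6303322 counts. Marker genes of several cell types differed between the groups. A list of 15 skeletal muscle markers took 0.0749% ± 0.0709 of counts in untaped, 7.28% ± 2.69 in taped and 3.13% ± 1.20 in NGO-cream skin (SD, n = 3). A list of 7 basal keratinocyte markers took 2.90% ± 0.316, 0.177% ± 0.0527 and 1.56% ± 0.407 in the same order, and the ribosomal RNA precursor Rn45s took 14.2% ± 1.63, 23.4% ± 1.51 and 15.3% ± 5.82. The 8 hair matrix and shaft markers summed to 16.8 to 97.9 CPM (counts per 1000000 counts of a library, scaled by edgeR's TMM factors) in untaped, 0.964 to 13.3 CPM in taped and 5.82 to 15.1 CPM in NGO-cream skin, with 6 and 5 of the 8 at 0 throughout the taped and NGO-cream groups. The 4 suprabasal keratinocyte markers took 1.05% ± 0.472, 0.0197% ± 0.00673 and 0.0799% ± 0.0257 of counts. All 4 were called lower after stripping, 2 were higher with NGO than in taped skin, and 3 were lower in NGO-cream than in untaped skin. Of 3 sebocyte markers 2 were called lower after stripping and 2 higher with NGO, at summed levels of 764 ± 180 CPM, 79.0 ± 40.2 CPM and 449.8 ± 54.3 CPM. After stripping 4 of 5 fibroblast and 3 of 3 endothelial markers were called higher. Taped libraries also held more zeros. Of 9570 genes with a mean of at least 10 CPM in untaped skin, 7.64% to 12.7% were at 0 in a taped library, against 1.59% to 3.11% in an NGO-cream one. The part of these differences in the results below was not tested.

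The summed level of the 42 mitotic genes was lowest after tape stripping with control cream and highest after stripping with NGO cream. It was 3085, 2077 and 1781 CPM in the untaped libraries, 1161, 879 and 841 CPM in the taped libraries and 3410, 3693 and 3204 CPM in the NGO-cream libraries. Every taped library thus lay below every other library, and every NGO-cream library lay above every untaped one. The number of the 42 genes with no count at all was 1, 0 and 0 in the untaped, 15, 16 and 9 in the taped and 0 in each of the NGO-cream libraries. Among the 38 members with a mean of at least 10 CPM in untaped skin, 34.2%, 34.2% and 18.4% were at 0 in the taped libraries, beside 7.64% to 12.7% of all genes past the same cut. The cut was made on untaped skin and has no upper limit. Members and all genes were thus not matched for level, and these shares are not a like comparison.

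**Figure D1:**
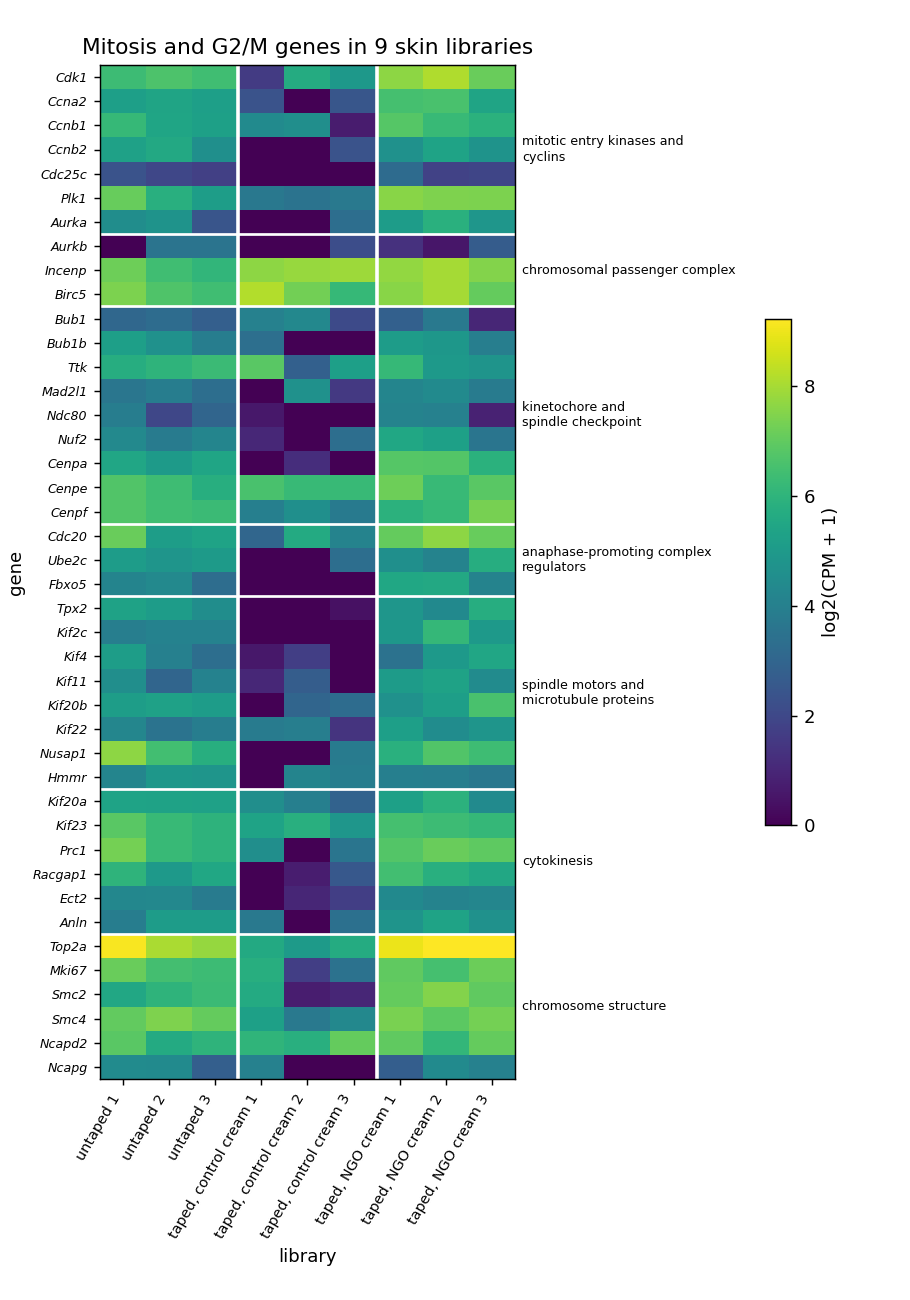
Heat map of log2(CPM + 1) for the 42 genes (rows, grouped by role with white lines) in the 9 libraries (columns, 3 per group). The taped libraries hold 15, 16 and 9 genes at 0 counts, and Incenp, Birc5, Cenpe and Ncapd2 stay bright in them.

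All 42 genes passed the low-count filter and were tested with edgeR's quasi-likelihood test, in which a gene is called at an adjusted p under 0.05 over the 13740 genes tested. In taped against untaped skin 14 of the 42 were called lower (33.3%), against a background of 7.64% of all genes tested, and 1, Incenp, was called higher, against 5.97%. The median log2 fold change of the 42 was -2.50, beside -0.20 for all genes. In NGO-cream against taped skin 15 were called higher (35.7%, background 3.87%) and 0 lower (background 1.18%; 0 at an unadjusted p under 0.05, where 7.73% of all genes were lower), with a median of 3.12 beside 0.07. Both comparisons use the same taped libraries, so they are not independent of each other. In NGO-cream against untaped skin 0 were called higher (background 2.06%) and 0 lower (background 0.451%), with a median of 0.48 beside -0.07. Scaling by the RLE method moved the median of all genes after stripping to -0.07, and no called change of a member turned direction under the scalings tried. A fit of only the groups compared, with fewer samples, ended the calls of Ccna2, Ccnb2, Incenp, Kif4, Nusap1 and Prc1 after stripping and those of Cdk1, Ccna2, Cenpf, Cdc20, Kif4, Nusap1, Prc1 and Racgap1 with NGO. The groups did not overlap for 29 genes that were lower and 1 that was higher after stripping (24.7% and 13.8% of all genes), for 31 that were higher and 0 that were lower with NGO (16.3% and 8.92%), and for 8 that were higher and 1 that was lower in NGO-cream than in untaped skin (11.9% and 14.4%).

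**Figure D2:**
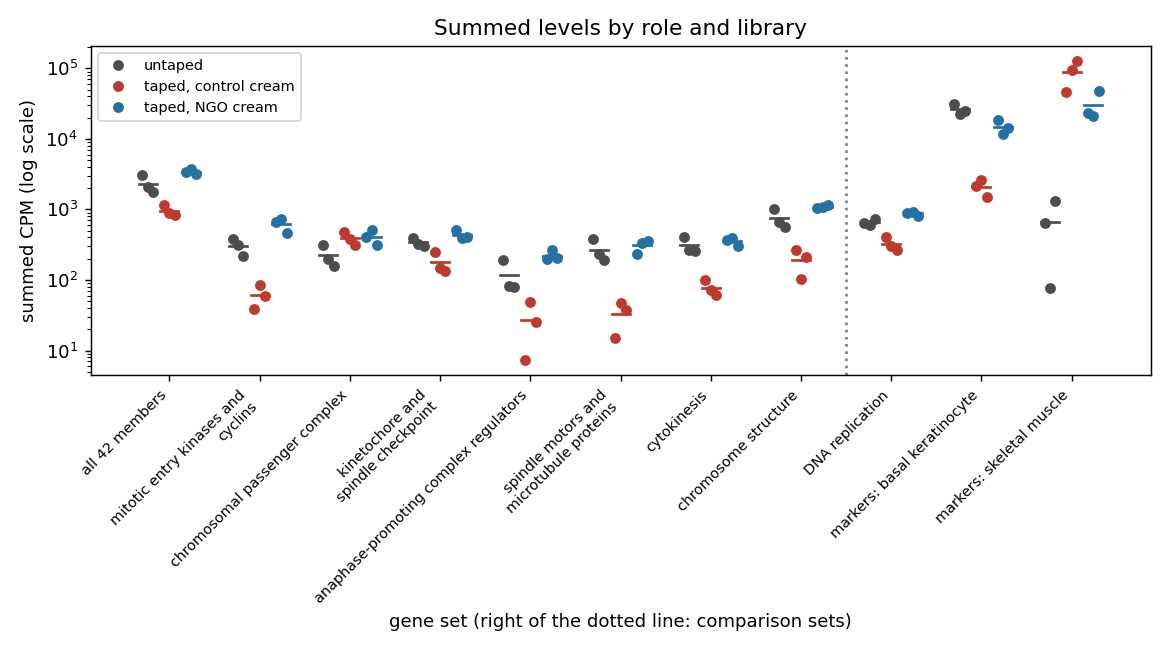
Summed CPM (log axis) of all 42 genes, of each role, and of 3 comparison sets, by library. Each point is a library and each short line a group mean. The taped libraries lie lowest for every role but the chromosomal passenger complex.

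The kinases and cyclins that drive entry into mitosis formed the role with the largest ratio of NGO-cream to taped levels. Their summed level was 307 ± 83.0 CPM in untaped, 60.6 ± 22.6 CPM in taped and 615 ± 135 CPM in NGO-cream skin (SD, n = 3). Of the 7 genes, Ccna2, Ccnb2 and Plk1 fell after stripping (42.9%, beside 7.64% of all genes), and Cdk1, Ccna2 and Plk1 rose with NGO (42.9%, beside 3.87%). Plk1, the polo-like kinase that acts at entry, at spindle poles and in cytokinesis (chromosome 7, 122159439 to 122169873), stood at 135, 56.0 and 34.5 CPM in the untaped libraries, 11.9, 10.4 and 12.2 CPM in the taped libraries and 191, 175 and 168 CPM in the NGO-cream libraries. The 3 groups did not overlap, and the taped libraries lay close together. The log2 fold change was -2.70 ± 0.49 (SE) after stripping (edgeR adjusted p = 0.00232) and 3.95 ± 0.52 with NGO against taped skin (edgeR adjusted p = 0.00158). With limma-voom the fall of Plk1 was not called (adjusted p = 0.139). Ccna2 encodes cyclin A2, which works with Cdk1 and Cdk2 in S and G2. It went from 36.1, 41.3 and 36.0 CPM to 4.14, 0 and 4.50 CPM, and stood at 89.4, 95.5 and 40.8 CPM with NGO. The fall was -3.73 ± 0.88 (edgeR adjusted p = 0.0124) and the rise 4.72 ± 0.91 (edgeR adjusted p = 0.012), the rise being lost without NGO replicate 1 (edgeR adjusted p = 0.055).

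Cdk1, the kinase at the centre of mitotic entry (chromosome 10, 69335146 to 69352938), varied widely among taped libraries. It stood at 79.8, 99.0 and 83.7 CPM in untaped, 2.07, 50.7 and 29.6 CPM in taped and 202, 278 and 140 CPM in NGO-cream skin. The groups did not overlap in any comparison, but the difference after stripping was not called (-1.66 ± 0.68, edgeR adjusted p = 0.128), and the rise with NGO (2.90 ± 0.71, edgeR adjusted p = 0.0341) did not hold in 5 of the 9 fits with 1 library less (without untaped replicate 1, taped replicate 3 or any NGO replicate, up to edgeR adjusted p = 0.106). Its partners encode the B cyclins. Ccnb2 went from 38.2, 46.9 and 23.0 CPM to 0, 0 and 4.18 CPM after stripping (-4.59 ± 1.22, edgeR adjusted p = 0.0231, lost without untaped replicate 1 or 2, up to 0.0752) and stood at 24.5, 39.8 and 25.6 CPM with NGO (4.32 ± 1.20, edgeR adjusted p = 0.0562). Ccnb1 did not pass in either comparison (-1.80 ± 0.80 and 2.49 ± 0.82). The phosphatase gene Cdc25c, which activates Cdk1, had 30 counts over the untaped, 0 over the taped and 56 over the NGO-cream libraries, and the kinase gene Aurka, which acts at the spindle poles, differed by -2.49 ± 1.33 and 3.67 ± 1.39. Neither was called.

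**Figure D3:**
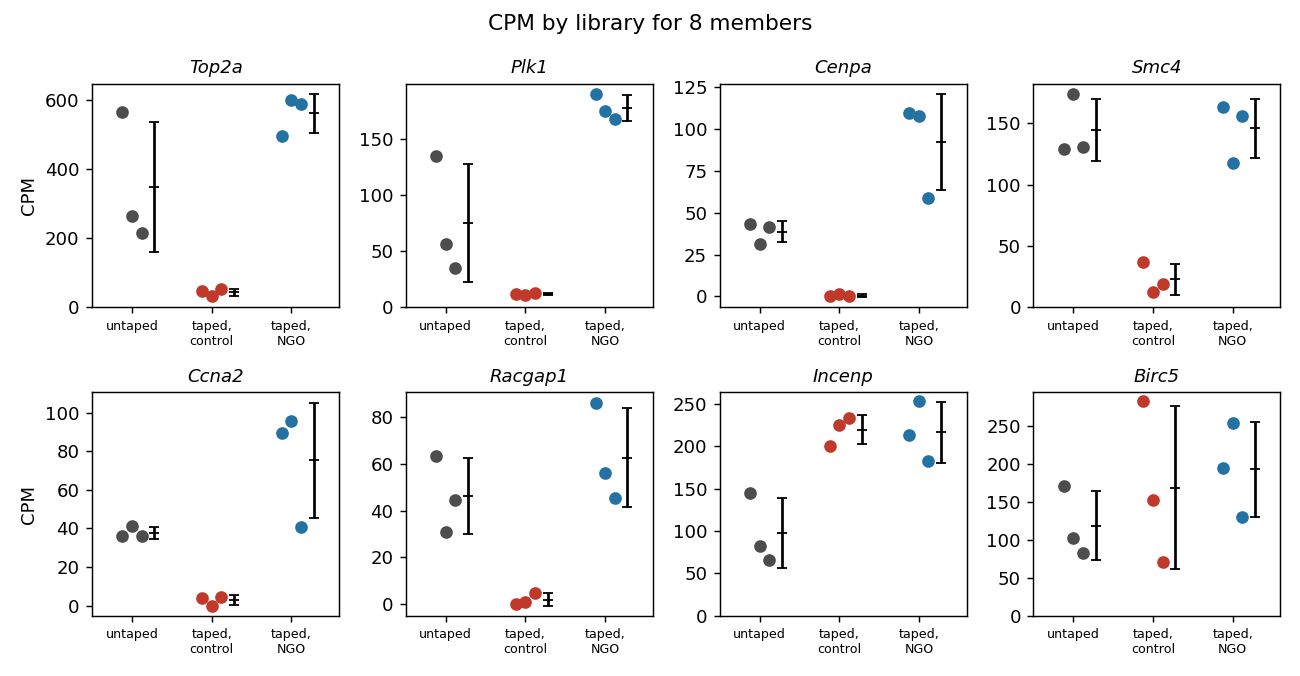
CPM by library for 8 members, with the mean and SD (n = 3) of each group as a bar beside the points. Top2a, Plk1, Cenpa, Smc4, Ccna2 and Racgap1 are low in all 3 taped libraries, while all 3 taped values of Incenp lie above the untaped ones and those of Birc5 overlap both other groups.

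Among chromosome structure genes, and among all 42, the largest single difference in mean CPM was that of Top2a, topoisomerase II alpha, which untangles DNA before chromosomes part (chromosome 11, 98992943 to 99024189). It held 564, 265 and 215 CPM in untaped, 47.6, 31.8 and 50.8 CPM in taped and 495, 599 and 586 CPM in NGO-cream skin. The changes of -3.0 ± 0.40 and 3.69 ± 0.41 (edgeR adjusted p = 0.000236 and 0.000676) stood in all 9 fits that left out a library. Untaped replicate 1 lay far above the other untaped libraries and within the range of the NGO-cream ones. Smc4, a core subunit of the condensin complexes that compact chromosomes (chromosome 3, 69004738 to 69034623), went from 129, 174 and 131 CPM to 36.7, 12.3 and 18.6 CPM, and stood at 163, 118 and 156 CPM with NGO. It changed by -2.69 ± 0.44 and 2.70 ± 0.44 (edgeR adjusted p = 0.001 and 0.00463). Untaped and NGO-cream skin were close for Smc4, with a difference of 0.01 and a 95% interval from -0.86 to 0.88.

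The other 4 genes of this role were not called. Mki67, the gene of the Ki-67 proliferation antigen that coats mitotic chromosomes, stood at 138, 87.0 and 79.0 CPM, then 54.8, 2.27 and 10.3 CPM, then 123, 89.3 and 140 CPM (-2.20 ± 0.78, edgeR adjusted p = 0.0791, and 2.41 ± 0.78, edgeR adjusted p = 0.0931). All of its taped values lay below all others, but they spread over a wide range. Smc2, the partner of Smc4, had 48.6 CPM in taped replicate 1 and 0.65 and 0.964 CPM in replicates 2 and 3. Of the condensin I subunits, Ncapg differed by -1.62 ± 1.61 and 1.46 ± 1.60 and Ncapd2 by 0.14 ± 0.46 and 0.36 ± 0.46. Ncapd2 was at 64.7, 56.2 and 131 CPM in taped skin, within or above its untaped range of 49.2 to 116 CPM. Condensin subunits thus did not share one pattern in their values, although the difference between subunits was not tested.

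At kinetochores, where chromosomes attach to the spindle, 2 of 9 genes fell after stripping (22.2%, beside 7.64% of all genes). The same 2 by name rose with NGO (22.2%, beside 3.87%). Cenpa, the histone H3 variant that marks centromeres (chromosome 5, 30666777 to 30674830), held 43.0, 31.5 and 41.6 CPM in untaped skin. In taped skin it had 4 counts in all, at 0, 1.30 and 0 CPM, and in NGO-cream skin it held 110, 108 and 59.1 CPM. The changes were -6.24 ± 0.89 (edgeR adjusted p = 0.000392) and 7.49 ± 0.91 (edgeR adjusted p = 0.000977), and every NGO-cream library exceeded every untaped one. Cenpf, a large kinetochore protein that builds up in G2, went from 106, 84.0 and 76.6 CPM to 15.0, 23.1 and 12.9 CPM (-2.38 ± 0.49, edgeR adjusted p = 0.00512) and stood at 60.1, 71.5 and 162 CPM with NGO (2.52 ± 0.49, edgeR adjusted p = 0.0124). The rise of Cenpf was lost without NGO replicate 3 (edgeR adjusted p = 0.0659), its highest library, and with limma-voom (adjusted p = 0.107).

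The spindle checkpoint genes were mixed. Bub1b, a checkpoint protein, and Nuf2, a kinetochore subunit, had fitted differences of -3.06 and -2.28 after stripping and 3.09 and 3.15 with NGO. Ndc80, whose protein holds the microtubule together with that of Nuf2, had 75, 1 and 127 counts over the untaped, taped and NGO-cream groups. The ratio of untaped to taped skin was 62.9 (exact 95% counting interval 10.9 to 2515). That interval covers counting error only, and the libraries held 41, 10 and 24 counts in untaped and 55, 67 and 5 in NGO-cream skin. None of these 3 genes was called (edgeR adjusted p from 0.0838 to 0.255), although their groups did not overlap in either comparison. Bub1 and Ttk, the checkpoint kinases, and Mad2l1, which carries the checkpoint signal, overlapped between groups in both comparisons. Ttk held 115, 6.17 and 35.7 CPM in taped skin beside 52.3 to 77.8 CPM in untaped skin, and Mad2l1 held 0, 24.4 and 1.93 CPM, so the taped libraries spread widely. Cenpe, the kinesin that carries chromosomes to the spindle equator, held 94.7, 73.8 and 72.9 CPM in taped skin and 54.5 to 106 CPM in untaped skin. The 95% interval of its log2 difference ran from -0.85 to 0.84.

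The chromosomal passenger complex, which corrects faulty attachments and guides cytokinesis, did not share the fall in its summed level. Its summed level was 223 ± 81.4 CPM in untaped, 390 ± 88.3 CPM in taped and 412 ± 95.5 CPM in NGO-cream skin. Incenp, its scaffold (chromosome 19, 9872296 to 9899551), held 145, 82.8 and 65.7 CPM in untaped, 201, 225 and 234 CPM in taped and 214, 254 and 182 CPM in NGO-cream skin. It rose by 1.17 ± 0.34 after stripping (edgeR adjusted p = 0.0382), and both tape-stripped groups lay above every untaped library. That call did not hold in 6 of the 9 fits with 1 library less (without untaped replicate 2 or 3, taped replicate 2 or 3, or NGO replicate 1 or 2, with edgeR adjusted p up to 0.202). Incenp was level between NGO-cream and taped skin (-0.02 ± 0.34, 95% interval -0.75 to 0.71). Birc5, which encodes survivin, held 170, 102 and 83.1 CPM, then 283, 152 and 71.3 CPM, then 194, 254 and 130 CPM, with groups that overlapped in all comparisons (0.51 ± 0.47, edgeR adjusted p = 0.557, after stripping). Aurkb, the kinase of the complex, had 0, 36 and 36 counts in untaped, 0, 0 and 11 in taped and 5, 2 and 33 in NGO-cream skin. Its differences of -2.52 ± 2.16 and 1.03 ± 2.07 were not called. Incenp, Birc5 and Top2a together made up 42.3% to 46.5% of the summed CPM of the 42 genes in taped libraries, against 20.4% to 28.5% in untaped and 26.5% to 30.0% in NGO-cream ones.

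**Figure D4:**
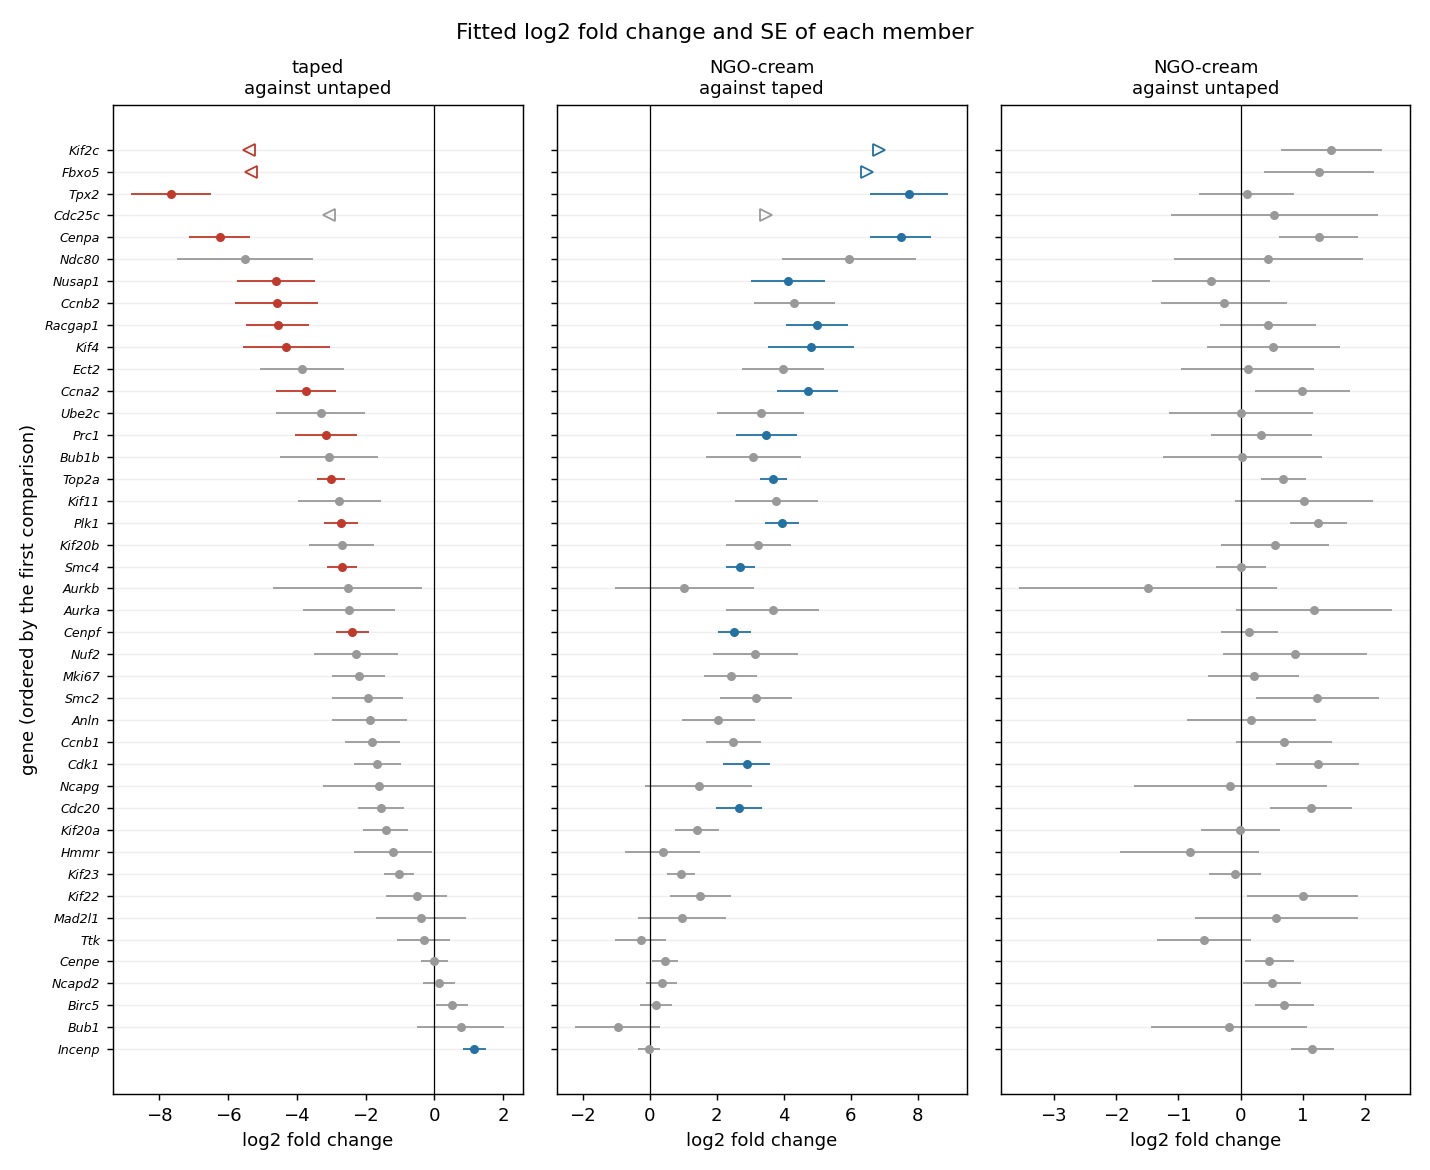
Log2 fold change of each member (points, with SE as bars) in the 3 comparisons, ordered by the fitted change after stripping. Red marks genes called lower, blue genes called higher and grey genes not called, and the open triangles of Kif2c, Fbxo5 and Cdc25c mark lower bounds on the size of the change, since all taped counts were 0. The 3 panels have separate axis ranges.

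Regulators of the anaphase-promoting complex, the ubiquitin ligase that ends mitosis, were low after stripping at 27.1 ± 20.8 CPM in sum, beside 117 ± 62.4 CPM in untaped and 222 ± 37.8 CPM in NGO-cream skin. Fbxo5 encodes EMI1, an inhibitor of that ligase (chromosome 10, 5799160 to 5805600). It held 16.9, 19.5 and 8.84 CPM in untaped skin, had 0 counts in all taped libraries, and held 44.7, 47.0 and 16.6 CPM with NGO. Set against a floor of 3 counts over the taped group (0.369 CPM), it was at least 40.5-fold lower than in untaped skin and at least 89.5-fold higher with NGO (edgeR adjusted p = 0.00236 and 0.00493). Such floors, and all counting intervals given here, cover counting error only. Cdc20, an activator of the ligase, rose with NGO from 7.24, 48.7 and 16.4 CPM to 130, 202 and 133 CPM (2.67 ± 0.69, edgeR adjusted p = 0.0429), a call that was lost without taped replicate 1 or 3 or any NGO replicate (up to edgeR adjusted p = 0.122), with RLE factors and with limma-voom. Its difference after stripping was -1.54 ± 0.67 (edgeR adjusted p = 0.15). The 3′ end of Cdc20 overlaps Elovl1 on the other strand, and no source used here gives the strand rule of the counting, so reads of the pair may be mixed. Ube2c, the ubiquitin-conjugating enzyme of the ligase, had 0, 0 and 28 counts in taped skin and was not called (-3.30 ± 1.30 and 3.31 ± 1.30). Its 3′ end overlaps the muscle gene Tnnc2, which held 4457 to 17769 CPM in the same libraries.

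Spindle motors and microtubule proteins had the lowest ratio of taped to untaped levels among the roles. Their sum was 268 ± 98.4 CPM in untaped, 33.1 ± 16.3 CPM in taped and 309 ± 68.9 CPM in NGO-cream skin. Tpx2, which targets the Aurka kinase to the spindle (chromosome 2, 152847964 to 152895321), held 38.5, 33.3 and 21.8 CPM, had 1 count in all in taped skin, and held 28.1, 19.7 and 52.4 CPM with NGO. The ratio of untaped to taped skin was 251 (exact 95% counting interval 44.6 to 9930) and that of NGO-cream to taped skin was 293 (52.4 to 11615), with edgeR adjusted p = 0.000595 and 0.00271. Kif2c, a kinesin that takes microtubule ends apart at centromeres (chromosome 4, 117159639 to 117182639), held 14.4, 16.2 and 15.9 CPM, then 0 counts, then 28.4, 69.9 and 29.8 CPM. It was at least 42.2-fold lower after stripping and at least 114-fold higher with NGO (edgeR adjusted p = 0.00139 and 0.00269). Both genes kept their calls in all 9 fits that left out a library.

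Nusap1 and Kif4 were called in both comparisons, and each lost its calls when certain single libraries were left out. Nusap1, which bundles spindle microtubules, went from 199, 85.8 and 53.9 CPM to 0, 0 and 13.2 CPM (-4.61 ± 1.13, edgeR adjusted p = 0.0154) and stood at 56.5, 105 and 81.4 CPM with NGO (4.13 ± 1.11, edgeR adjusted p = 0.0494). Kif4, a chromosome-bound kinesin, went from 34.1, 15.0 and 9.14 CPM to 0.517, 2.27 and 0 CPM (-4.30 ± 1.26, edgeR adjusted p = 0.0377) and to 10.3, 30.3 and 43.3 CPM with NGO (4.83 ± 1.29, edgeR adjusted p = 0.048). For both genes the taped libraries all lay below the others, while NGO-cream and untaped libraries overlapped. The fall of Nusap1 was lost without untaped replicate 1 (edgeR adjusted p = 0.0734) and its rise without any 1 library other than taped replicate 3 (up to 0.121). The fall of Kif4 was lost without any 1 library other than taped replicate 2 and NGO replicate 1 (up to 0.155), and its rise without any 1 library other than taped replicate 2 (up to 0.15). Of 18 alternatives in all, the fall of Nusap1 was kept in 15, the rise of Nusap1 in 2, the fall of Kif4 in 8 and the rise of Kif4 in 5. The rise of Nusap1 was also lost with RLE and upper-quartile factors, both other filters, DESeq2, limma-voom and the replicate block, and its fall with no filter (edgeR adjusted p = 0.138). Limma-voom and the replicate block ended both calls of Kif4, and RLE and upper-quartile factors its rise. The other 4 genes of this role were not called. Kif11, the kinesin that pushes spindle poles apart, and Kif20b, a kinesin of late mitosis, differed by -2.76 and -2.69 after stripping and by 3.78 and 3.25 with NGO. Kif22, a chromosome-bound kinesin, differed by -0.52 and 1.51, and Hmmr, a spindle-associated hyaluronan receptor, by -1.21 and 0.39. Hmmr was the 1 gene whose NGO-cream libraries (11.8 to 14.8 CPM) all lay below the untaped ones (17.2 to 28.3 CPM).

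Among the 6 cytokinesis genes Prc1 and Racgap1 fell after stripping (33.3%, beside 7.64% of all genes) and rose with NGO (33.3%, beside 3.87%). Racgap1, a subunit of centralspindlin at the midzone of the dividing cell (chromosome 15, 99620496 to 99651656), went from 63.3, 30.7 and 44.5 CPM to 0, 0.65 and 4.82 CPM and stood at 86.4, 56.2 and 45.6 CPM with NGO. The changes were -4.55 ± 0.92 (edgeR adjusted p = 0.00474) and 5.0 ± 0.94 (edgeR adjusted p = 0.0109), the rise being lost without NGO replicate 1 (edgeR adjusted p = 0.0515) and with limma-voom. Prc1, which bundles the midzone microtubules (chromosome 7, 80294450 to 80316259), went from 156, 74.0 and 61.6 CPM to 22.8, 0 and 10.9 CPM (-3.15 ± 0.91, edgeR adjusted p = 0.0343) and stood at 108, 137 and 122 CPM with NGO (3.48 ± 0.92, edgeR adjusted p = 0.0462). Both Prc1 calls were lost without untaped replicate 1, taped replicate 3, or NGO replicate 1 or 2, and the rise also without untaped replicate 2 or 3 or NGO replicate 3 (up to edgeR adjusted p = 0.133 and 0.111). Testing with no low-count filter ended both, and RLE factors the rise.

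The other cytokinesis genes were not called. Ect2, which activates RhoA at the cleavage furrow, had taped libraries below all others and differences of -3.86 ± 1.22 and 3.97 ± 1.23 (edgeR adjusted p = 0.0524 and 0.0781). Kif23, the other centralspindlin subunit, had smaller fitted differences (-1.03 ± 0.42 and 0.94 ± 0.42), and Anln, an actin-binding protein of the contractile ring, differed by -1.88 ± 1.09 and 2.05 ± 1.09. Kif20a, a kinesin of the midzone, differed by -1.41 ± 0.65 and 1.40 ± 0.65, but its 3′ end overlaps Cdc23 on the other strand, and the deposited counts of the pair were identical in 3 of 9 libraries and within 10% in 6, so the values of Kif20a may belong in part to Cdc23. The 3′ ends of Ccna2, Prc1 and Ncapg also overlap genes on the other strand (Exosc9, Rccd1 and Lcorl).

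In the comparison of NGO-cream with untaped skin edgeR called 0 of the 42 genes. At an unadjusted p under 0.05, 2 of the 42 were higher (Plk1 and Incenp) and 0 lower, where 6.83% and 4.88% of all genes were, so in this fit of 9 libraries the share of members was no larger than that background. A fit of these 2 groups alone called 2 higher (Cdk1 and Smc2), with 9 of 42 higher at an unadjusted p under 0.05. The share of all genes in that fit was not computed. The fitted change was above 0 for 33 of 42, beside 46.3% of all genes. Plk1 was higher in each NGO-cream library, by 1.25 ± 0.46 (edgeR adjusted p = 0.258), and Cdk1 by 1.24 ± 0.66 (edgeR adjusted p = 0.552). Top2a differed by 0.69 ± 0.37, with a 95% interval from -0.10 to 1.47. The groups did not overlap for 8 members that were higher with NGO, Cdk1, Plk1, Aurka, Incenp, Cenpa, Kif2c, Kif22 and Smc2. DESeq2 called 1 member higher (Incenp; 3.59% of all genes) and limma-voom 7 (6.32% of all genes; Cdk1, Plk1, Incenp, Cenpa, Cdc20, Top2a and Smc2), and leaving out untaped replicate 1, the highest untaped library for 26 of the 42, let edgeR call 2 (Plk1 and Incenp; 1.56% of all genes).

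Genes of mitosis outside the 42 were read from a further list of 54, of which 51 passed the filter. After stripping 12 were called lower (23.5%, beside 7.64% of all genes) and 0 higher, with a median of -1.92. Before adjustment, at a p under 0.05, 1 was higher (11.5% of all genes), as was 1 with DESeq2 (10.1%) and 1 with limma-voom (10.2%). With NGO 9 were called higher (17.6%, beside 3.87%) and 0 lower, with a median of 2.19. Before adjustment 2 were lower (7.73% of all genes), as was 1 with DESeq2 (5.36%) and 0 with limma-voom (1.59%). Their summed level did not share the pattern, at 1585 to 1911 CPM in untaped, 1304 to 2203 CPM in taped and 1658 to 2222 CPM in NGO-cream skin, of which Hjurp, the chaperone that loads the Cenpa protein, alone held 535, 1060 and 562 CPM on average. With Hjurp left out of the sum, every taped library lay below every other library. Cdca8 encodes borealin, the remaining subunit of the chromosomal passenger complex. It held 49.2, 51.3 and 32.4 CPM in untaped, 1.03, 0 and 0 CPM in taped and 113, 84.9 and 87.3 CPM in NGO-cream skin. The ratio to taped skin, which had 2 counts, was 179 (exact 95% counting interval 49.2 to 1482) for untaped and 377 (104 to 3117) for NGO-cream skin (edgeR adjusted p = 0.00015 and 0.000676). Borealin transcripts thus fell while those of Incenp rose, a difference between genes that was not tested itself. Cdca3, which promotes the turnover of the mitotic inhibitor Wee1, had 222, 1 and 654 counts over the same groups, ratios to taped skin of 186 (33.1 to 7381) and 389 (69.6 to 15400). Psrc1, a microtubule protein, Plk4, the kinase of centriole copying, and the kinetochore genes Casc5 and Ska1 had 0 counts in taped skin. They were at least 63.7-fold, 33.2-fold, 49.2-fold and 22.9-fold lower than in untaped skin and, with NGO, at least 95.8-fold, 89.3-fold, 53.2-fold and 61.7-fold higher. Cdca2 and the kinesin gene Kifc1 also fell (-4.47 ± 1.16 and -3.20 ± 0.86) and rose (5.57 ± 1.20 and 3.66 ± 0.87). Without untaped replicate 1 the falls of Ska1 and Cdca2 were lost, and without untaped replicate 1 or 2 or taped replicate 3 that of Kifc1 (up to edgeR adjusted p = 0.116). The rise of Casc5 was lost without NGO replicate 2, that of Ska1 without NGO replicate 1 or 3, that of Cdca2 without any NGO replicate, and that of Kifc1 without any 1 library other than taped replicates 1 and 2 (up to edgeR adjusted p = 0.111). Of the called genes named from this list and from the regulators below, without Cdc25b, 6 of 11 after stripping and 3 of 10 with NGO kept their calls in every alternative.

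Of 18 regulators of mitotic genes and of Cdk1, E2f7, Pkmyt1 and Cdc25b, a phosphatase that activates Cdk1, fell after stripping and rose with NGO, and Lin9 rose after stripping. The first 3 were 16.7% of the list, beside 7.64% of all genes lower after stripping and 3.87% higher with NGO. Lin9 alone was 5.56% of the list, near the 5.97% of all genes called higher after stripping. Cdc25b held 87.4, 56.3 and 39.5 CPM in untaped, 0.517, 1.30 and 15.4 CPM in taped and 121, 44.9 and 83.7 CPM in NGO-cream skin. Its calls were not followed through the alternatives. E2f7, a repressor that acts in late S phase, had 115 counts over the untaped, 2 over the taped and 1100 over the NGO-cream libraries, of which NGO replicate 2 stood highest at 181 CPM beside 42.6 and 29.3 CPM. Its ratios to taped skin were 48.2 (13.0 to 403) and 327 (90.4 to 2707), with edgeR adjusted p = 0.0107 and 0.00395. The fall of E2f7 was lost with limma-voom (adjusted p = 0.105) and in the fit of only the groups compared (edgeR adjusted p = 0.099). Pkmyt1, a kinase that holds Cdk1 inactive, went from 54.0 ± 7.80 CPM to 4.0 ± 4.34 CPM and stood at 62.3 ± 19.7 CPM with NGO (-3.81 ± 0.81 and 4.02 ± 0.82). Its rise was lost without NGO replicate 3 (edgeR adjusted p = 0.0543), with limma-voom (adjusted p = 0.0536) and in the fit of only the groups compared (edgeR adjusted p = 0.0932). The MuvB subunit gene Lin9 held 39.9, 37.1 and 41.3 CPM in untaped, 283, 170 and 79.0 CPM in taped and 16.3, 88.4 and 51.7 CPM in NGO-cream skin (2.17 ± 0.58 after stripping, edgeR adjusted p = 0.0248, lost without any untaped replicate or taped replicate 1, up to 0.0866). Foxm1 was not called at -1.57 ± 0.67 and 2.26 ± 0.68 (edgeR adjusted p = 0.145 and 0.0727) nor was Mybl2, the gene of B-MYB, at 1.35 ± 0.44 and -0.60 ± 0.43 (edgeR adjusted p = 0.0582 and 0.468). Mybl2 held 65.5 to 79.1 CPM in taped skin, above its 22.7 to 35.4 CPM in untaped skin. Cdkn1a, the p21 inhibitor, differed by 0.20 ± 0.32 and -0.63 ± 0.32 and was not called.

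Mitotic genes were also set beside genes of S phase and of basal keratinocytes. A list of 16 DNA replication genes summed to 660 ± 64.4 CPM in untaped, 325 ± 70.4 CPM in taped and 883 ± 57.5 CPM in NGO-cream skin, with 2 of 16 (12.5%) called lower after stripping (Mcm7 and Gins2), beside 7.64% of all genes, and the same 2 by name higher with NGO, beside 3.87%. The mitotic entry genes stood at 59.9, 51.9 and 30.2 CPM per 100 CPM of these replication genes in untaped skin, 9.51, 27.2 and 22.7 in taped skin and 73.4, 77.6 and 56.5 in NGO-cream skin. That ratio did not overlap between taped skin and the other groups. For all 42 genes it overlapped between taped and untaped skin, while every taped library lay below every NGO-cream one. The values were 478, 343 and 244 CPM per 100 CPM of replication genes in untaped, 289, 286 and 317 in taped and 380, 396 and 391 in NGO-cream skin. The 7 basal keratinocyte markers summed to 26133 ± 4452, 2088 ± 534 and 14805 ± 3301 CPM. Per 100 CPM of that sum, mitotic entry genes held 1.24, 1.40 and 0.886 CPM in untaped and 1.76, 3.25 and 3.97 in taped skin. With NGO they held 3.58, 6.07 and 3.28 CPM. For all 42 genes the values were 9.93, 9.26 and 7.15, then 53.3, 34.2 and 55.5, then 18.5, 31.0 and 22.7. Every taped and every NGO-cream library lay above every untaped one in both ratios. The ratio of entry genes to a single marker differed with the marker. Per CPM of Krt5 and Krt15 the entry genes were higher in every taped than in every untaped library, per CPM of Itga6 and Itgb4 they were lower, and for the other 3 markers the groups overlapped. Per 100 CPM of these 3, untaped and taped means were 4.86 and 7.68 (Krt14), 83.0 and 133 (Col17a1) and 207 and 423 (Trp63). Per 100 CPM of Krt15, a keratin that itself fell from 10891 to 46.4 CPM on average, the entry genes went from 2.88 to 149 CPM. Per 100 CPM of Itgb4, an integrin subunit that was not called after stripping (338 and 261 CPM on average), they went from 99.7 to 23.3 CPM.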

How the data were processed

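For each of the 9 libraries the authors deposited a table of raw counts by gene symbol, with whole-number values, per the file headers. The submitters' processing notes name Bowtie2, bedtools and mm10. Their roles and versions, the annotation, and how strand and multiply matching reads were handled are not given in the sources used here. Per the labels' protocols, 500 ng of total RNA went into each library. Each table held 23282 rows for 23238 symbols, and repeat rows were kept apart. In R 4.3.3, edgeR 4.0.16 (robust quasi-likelihood test, TMM scaling, filterByExpr) was run once over the 9 libraries, with the 3 groups as levels. This left 13740 genes, over which Benjamini-Hochberg adjustment was made. The SE is the size of the log2 fold change divided by the root of the F statistic. An exact permutation test of 3 libraries against 3 cannot go below 0.1, so none was used. The script was tested on simulated data. The 42 members and all lists were chosen with earlier results of these data known. Every member is named. From the further mitosis genes and regulators, up to 10 called genes per comparison and direction are named, by smallest p, and others were chosen after their values were seen. Replicate libraries differed by more than counting noise. Coordinates are from GENCODE M21 and promoter sequences from RefSeq. Alternatives were RLE and upper-quartile factors, library sizes without Rn45s and muscle markers, other low-count filters, DESeq2 1.42.0, limma-voom (limma 3.58.1), a replicate block, separate fits of each pair of groups, and leaving out each library.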

Additional observations from a re-analysis of the deposited data

How the results depend on the processing

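No called change of a member turned direction under any alternative. In taped against untaped skin, 10 of the 15 called members kept their calls in all 9 fits without 1 library, and in NGO-cream against taped skin 7 of 15 did. Over all 18 alternatives 8 of 15 and 7 of 15 did. Without 1 library at a time, members called lower after stripping numbered 10 to 17, members called higher 0 to 1, further mitosis genes called lower 5 to 15 and called higher 0 to 1. For NGO-cream against taped skin, members called higher numbered 8 to 17 and further mitosis genes 5 to 13. For NGO-cream against untaped skin, members called higher numbered 0 to 2, and the median member change ran from 0.35 to 0.76.

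After stripping, 1 further mitosis gene in place of 0 was called higher with RLE factors, upper-quartile factors, no low-count filter, DESeq2, limma-voom and the replicate block. Fitting only the groups compared gave 9 members lower, 0 higher and 6 further genes lower, and limma-voom gave a median member change of -3.57. For NGO-cream against taped skin, DESeq2 called 23 members higher, 15 further genes higher and 1 lower. Limma-voom called 4 further genes higher, with a median member change of 3.92, and the fit of these groups alone called 7 members and 2 further genes higher. For NGO-cream against untaped skin, members called higher numbered 1 with DESeq2, 7 with limma-voom (and 2 further genes) and 2 in the fit of these groups alone. The causes of these shifts were not tested, nor was the part played by the smaller number of samples in fits of 2 groups. For most counts in this section the share of all genes called was not computed. Those counts therefore cannot be set against a background.

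Deviations of libraries with the same replicate number correlated weakly (-0.0573 to 0.0858), beside -0.135 to 0.0666 for pairs with different numbers. Correlations this weak cannot show whether libraries of the same number were paired. With the replicate block, 14 members were called lower and 1 higher after stripping and 14 higher with NGO, 1 further mitosis gene was called higher after stripping, and the median member changes were -3.0 and 3.64.

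In all, 24 members had a taped library at 0 counts, and a group at 0 allows up to 0.369 CPM in taped skin. Library totals were 2019739, 3835539 and 4053655 counts in taped and 2794791 to 2937738 counts in untaped skin. The cause of the zeros was not tested.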
